A study of Mus musculus with 6 samples.

Results

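Peaks of hnRNP UL1 at the genes of Rab GTPases and their regulators were followed in RAW 264.7 cells, a transformed mouse macrophage line, at rest and after lipopolysaccharide (LPS), the bacterial cell-wall component sensed by Toll-like receptor 4. A gene was a member when its symbol began with Rab and a digit, with Rabgap, Rabep, Rabif or Rabgef, or with Tbc1d and a digit. The authors' tables hold 18624 peaks, of which 151 named a member as nearest gene. These fell on 51 genes, out of 5701 genes named in all. The antibody of the chromatin immunoprecipitation was raised against hnRNP UL1 (heterogeneous nuclear ribonucleoprotein U-like 1, a nuclear RNA-binding protein). Cells were untreated (0 h) or received LPS at 100 ng/ml for 4 h or 10 h. Each time is 1 library, so no difference between times can be tested and none carries a p-value. Peaks are given as points with no height, so a peak is present or absent here and read depth is unknown. Shares and ratios carry exact 95% intervals (Clopper-Pearson, or conditional on both counts for a ratio), which cover counting error only. Peaks of a gene lie close together, so such intervals are too narrow to stand for separate cultures.

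Rab proteins are small GTPases that mark the membranes of the cell. Exchange factors load them with GTP, which lets them recruit effectors that move, tether or fuse vesicles, and GTPase-activating proteins, most of them with a TBC domain, switch them off. In macrophages they direct the uptake of particles, the ripening of phagosomes into degradative compartments, the recycling of receptors such as Toll-like receptor 4 and the secretion of cytokines. The peak tables measure no RNA, so the macrophage label could not be checked against marker expression. Of the macrophage genes looked up, Ctsb was named by 16 peaks at 0 h, Lyz2 by 2 and Csf1r and Fcgr1 by 1 each. Spi1, Adgre1 and Mertk had 0 peaks at 0 h and 8, 2 and 5 at 4 h, and Cd68 and Itgam had none in any table. Of genes of other cell types, Cd3e (T cells) and Alb (liver) were named by no peak and Rbfox3 (neurons) by 1 at 4 h.

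The tables are ordered by Ensembl gene ID and reach different ends. The whole 0 h table was used for resting cells. Comparisons of 0 h with 4 h used the IDs that the 4 h table reaches (the 4 h range), where 29 members were named at either time. Comparisons with 10 h used the lower IDs that the 10 h table reaches (the 10 h range), where 18 were named. A member in these ranges that no peak names is not counted, because its ID is not in the tables.

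For 5 members a peak point fell inside the promoter window that RefSeq gives for the gene, 250 bases before to 50 after the start (GRCm38.p6). These windows are printed because they show the DNA directly under a Rab peak, with up to 10 bases on either side of the point in capitals. They are Rab1a (chr11:20201162-20201461, plus strand, 0 h point 175 bases before the start), Tbc1d5 (chr17:51179303-51179602, minus strand, 0 h point 83 bases before), Tbc1d9b (chr11:50131110-50131409, plus strand, 0 h point 211 bases before), Rab11fip2 (chr19:59943315-59943614, minus strand, 0 h point 43 bases after) and Rab14 (chr2:35201071-35201370, minus strand, 4 h point 76 bases before).
Rab1a: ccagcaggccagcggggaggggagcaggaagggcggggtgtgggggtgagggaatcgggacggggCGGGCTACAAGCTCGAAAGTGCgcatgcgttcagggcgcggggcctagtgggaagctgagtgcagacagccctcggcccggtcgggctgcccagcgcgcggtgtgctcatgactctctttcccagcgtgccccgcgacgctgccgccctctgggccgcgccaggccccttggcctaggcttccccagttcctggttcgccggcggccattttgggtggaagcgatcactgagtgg
Tbc1d5: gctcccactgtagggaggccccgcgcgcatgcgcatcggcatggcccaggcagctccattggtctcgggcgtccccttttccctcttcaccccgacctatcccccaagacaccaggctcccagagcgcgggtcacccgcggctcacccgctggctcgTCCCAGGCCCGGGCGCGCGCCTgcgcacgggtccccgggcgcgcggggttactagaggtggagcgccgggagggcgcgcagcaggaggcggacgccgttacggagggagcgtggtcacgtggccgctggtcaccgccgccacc
Tbc1d9b: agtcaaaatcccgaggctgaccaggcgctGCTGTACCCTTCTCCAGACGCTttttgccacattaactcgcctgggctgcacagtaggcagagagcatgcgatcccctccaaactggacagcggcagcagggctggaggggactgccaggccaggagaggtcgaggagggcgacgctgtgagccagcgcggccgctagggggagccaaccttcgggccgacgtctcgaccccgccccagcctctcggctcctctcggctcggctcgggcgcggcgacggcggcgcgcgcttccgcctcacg
Rab11fip2: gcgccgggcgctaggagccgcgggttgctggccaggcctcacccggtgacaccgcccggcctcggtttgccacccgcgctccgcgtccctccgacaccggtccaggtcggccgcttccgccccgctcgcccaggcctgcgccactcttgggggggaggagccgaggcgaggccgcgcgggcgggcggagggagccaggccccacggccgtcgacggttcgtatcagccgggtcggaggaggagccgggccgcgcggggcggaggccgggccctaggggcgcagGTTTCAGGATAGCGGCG
Rab14: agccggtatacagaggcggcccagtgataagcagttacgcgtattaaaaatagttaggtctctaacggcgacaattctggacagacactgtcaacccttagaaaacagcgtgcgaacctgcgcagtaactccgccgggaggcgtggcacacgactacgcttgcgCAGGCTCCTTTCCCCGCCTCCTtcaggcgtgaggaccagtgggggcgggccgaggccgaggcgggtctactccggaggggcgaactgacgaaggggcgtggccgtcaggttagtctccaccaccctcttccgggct

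These 5 windows are rich in G and C, from 61% in Rab14 to 78.3% in Rab11fip2. The GC box GGGCGG, on either strand, is found in the windows of Rab1a, Tbc1d9b, Rab11fip2 and Rab14. Tbc1d5 has instead 1 E-box CACGTG and 1 CCAAT. Motifs were searched on both strands, and none of them contains another. Of the 36 windows of the 26 members that had both a window and a peak within 1 kb of a start, 75% held GGGCGG, 19.4% CACGTG, 36.1% CCAAT, 27.8% the PU.1 core GAGGAA, 2.78% TATAAA and 0 the AP-1 motif TGANTCA. Over all 32851 windows of the table these shares were 35.7%, 7.15%, 37.4%, 28.3%, 13.6% and 7.81%. The 118 windows of all members, with or without a peak, gave 67.8%, 15.3%, 37.3%, 23.7%, 5.93% and 3.39%, so the shares at members with a promoter peak lie near those of the family as a whole. Median GC content was 61.5% in member windows and 52.7% in all windows.

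In resting cells hnRNP UL1 peaks named 35 of the 106 protein-coding genes of the family, 33% (24.2 to 42.8%). Over all 21896 protein-coding genes of the reference the share was 15.6%. Rab genes are longer than most, with a median span of 29.8 kb against 17.1 kb. Among genes over 31.2 kb, 26 of 52 members had a 0 h peak (50%, 35.8 to 64.2%), where the background was 25.7%. Between 8.71 and 31.2 kb it was 9 of 43 (20.9%, 10 to 36%) against a background of 14.8%. None of the 11 members below 8.71 kb was named, where the background was 6.36%. The part of promoter GC content in this was not tested. Most named members carried a single peak: 23 had 1, 9 had 2 and 3 had at least 3, which makes 53 peaks in all.

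**Figure D1:**
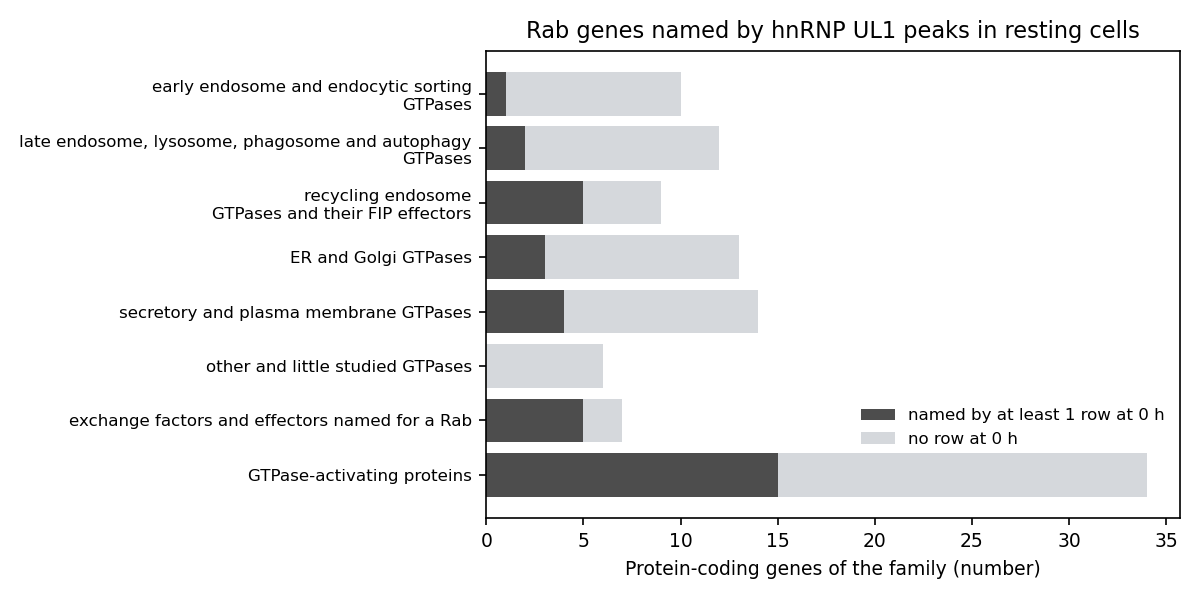
Protein-coding genes of the Rab family by role, with the number named by at least 1 peak of resting cells (dark) and by none (light). Named genes make up 15 of 34 GTPase-activating proteins, 5 of 7 exchange factors and effectors and 1 of 10 early endosome GTPases. The share over all protein-coding genes is 15.6%, and 25.7% over those longer than 31.2 kb. Differences between roles were not tested.

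Of the late endosome, lysosome and autophagy GTPases 2 of 12 were named at rest, 16.7% (2.09 to 48.4%), near the background of 15.6%. Rab7, which drives fusion of late endosomes and phagosomes with lysosomes, held 5 peaks at 0 h, the most of any member. Its gene lies on chromosome 6 (ENSMUSG00000079477, 87999106 to 88045270, minus strand) and all 5 points lay in its introns within 18.6 kb. The closest 2 were 233 bp apart in intron 1. Rab9, which returns receptors from late endosomes to the Golgi, held 2, of which 1 lay 668 bp from a start. The 4 h and 10 h tables reach neither Rab7 nor Rab9. The other 10 genes of this group had no 0 h peak naming them. A point inside Rab20 was assigned by the authors to a gene with no symbol, and one just upstream of Rab24 to the promoter of Prelid1.

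Of the early endosome GTPases 1 of 10 was named at rest, 10% (0.253 to 44.5%), against the background of 15.6%. It was Rab21, which acts in integrin endocytosis, with a peak 4563 bp from the listed start in intron 1. Rab5a, Rab5b and Rab5c, the GTPases that define early endosomes, had none. Of the exchange factors and effectors 5 of 7 were named, 71.4% (29.0 to 96.3%), against the background of 15.6%, or 25.7% for genes over 31.2 kb. Among them were the partners of Rab5, as Rabep1 (rabaptin-5), Rabep2 and the exchange factor gene Rabgef1 (rabex-5) held 1 peak each. The Rabep1 point lay 28 bp from its start. Rab3ip, an exchange factor for Rab8, held 1 at 117 bp, and Rabepk, a Rab9 effector, held 2 upstream of its gene.

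In the recycling group 5 of 9 genes were named, 55.6% (21.2 to 86.3%), against the background of 15.6%, or 25.7% for genes over 31.2 kb. Rab11b, a GTPase of the recycling endosome, held 1, 857 bp upstream of the start of a short internal transcript. The Rab11 effectors Rab11fip2, Rab11fip3 and Rab11fip4 held 1 each and Rab11fip5 held 2, while Rab11a and Rab11fip1 held 0.

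Of the ER and Golgi GTPases 3 of 13 were named, 23.1% (5.04 to 53.8%), and of the secretory GTPases 4 of 14, 28.6% (8.39 to 58.1%). Both intervals include the background of 15.6%. Rab1a, which carries vesicles from the ER to the Golgi, held 2 peaks, 1 of them in the window printed above. Rab2a, which acts between the same compartments, held 2 intron peaks 19286 and 57789 bp from its start, and Rab43 held 1 at 576 bp. The secretory genes were Rab3c, Rab3d, Rab8b and Rab10, with 1 peak each. None of these 4 peaks lay within 1 kb of a start, and 3 were in introns.

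Of the GTPase-activating proteins, the longest list, 15 of 34 were named at rest, 44.1% (27.2 to 62.1%), against the background of 15.6%. The background for genes over 31.2 kb was 25.7%, and most genes of this list are longer than that. The 15 named genes held 24 peaks, 0.706 per gene of the list, with 0.857 for exchange factors and effectors and 0.667 for the recycling group. Tbc1d9 held 4 (chromosome 8, 83165352 to 83272940), of which 1 lay 196 bp upstream of a start and 2 were distal. Tbc1d8 held 3. Tbc1d2, which acts on Rab7, Tbc1d5, a Rab7 regulator of the retromer pathway, Tbc1d22a and Tbc1d23 held 2 each. Of the 24 peaks 9 lay within 1 kb of a start, 6 in introns and 5 in distal sequence. Both subunits of the Rab3 GTPase-activating complex, Rab3gap1 and Rab3gap2, held 1 peak each, 1989 bp inside and 459 bp upstream of the start. The other single peaks were at Tbc1d1 and Tbc1d4, regulators of glucose transporter traffic, and at Rabgap1, Tbc1d7, Tbc1d9b, Tbc1d15 and Tbc1d19. The Tbc1d4 peak lay 11856 bp upstream in distal sequence. Other 0 h points inside Tbc1d1, Tbc1d22a, Tbc1d2b, Tbc1d22b and Tbc1d30 were assigned to genes with no symbol, and 1 inside Tbc1d9 to Gm10645.

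After 4 h of LPS many more hnRNP UL1 peaks named Rab genes, and the count over all genes grew about as much. In the 4 h range 88 peaks named 28 members, against 18 peaks on 13 members before LPS. The fold was 4.89 (2.92 to 8.63) for Rab genes, and 4.07 (3.88 to 4.26) over all genes of these IDs. Rab genes held 9.73 of every 1000 peaks at 4 h (7.81 to 11.97) and 8.09 at 0 h (4.80 to 12.8), and the ratio of these shares, 1.20, had an interval from 0.719 to 2.12 that includes 1. In the 10 h range the same 2 times gave 50 and 13 peaks, a fold of 3.85, with 4.04 over all genes.

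Of the 29 members 16 had a peak at 4 h and none at 0 h, 55.2% (35.7 to 73.6%), against a background of 61.3% of all named genes. Another 12, 41.4% (23.5 to 61.1%), had peaks at both times (background 30.5%), and 1, Rab3d, had a peak at 0 h alone (background 8.13%). That Rab3d peak was 20022 bp from its start in distal sequence. There were 26 members with more peaks at 4 h than at 0 h, 89.7% (72.6 to 97.8%), against 80.9%. At least 4 peaks at 4 h were held by 10 members, 34.5% (17.9 to 54.3%), against 19.4% of all named genes. The interval of each of these 5 shares includes its background.

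**Figure D2:**
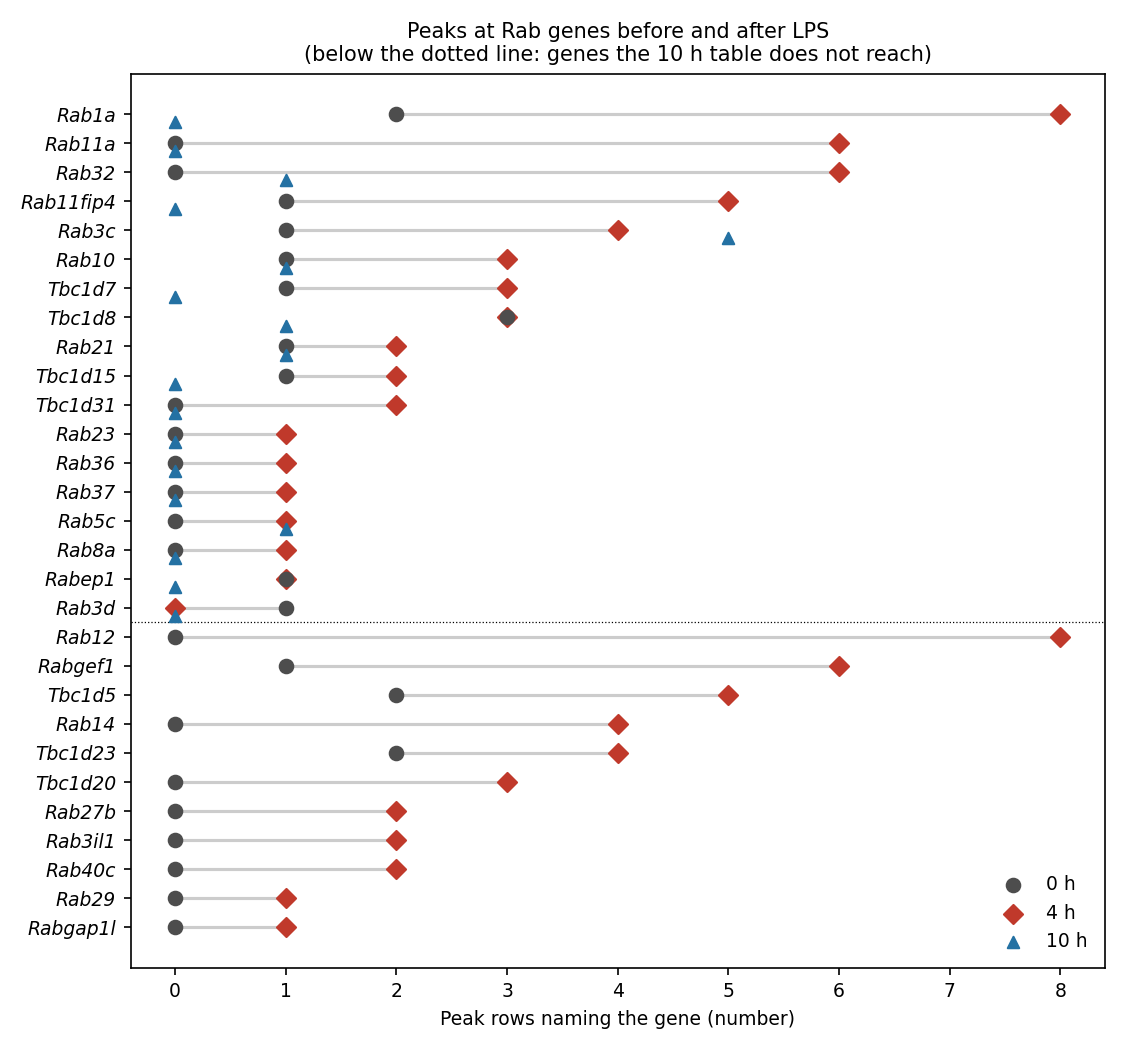
Number of peaks naming each member at 0 h (circles), 4 h (diamonds) and 10 h (triangles, for the 18 genes that the 10 h table reaches). Rab1a and Rab12 reach 8 peaks at 4 h, and Rab3d has its only peak at 0 h. By this count Rab3c alone has more peaks at 10 h than at 4 h. Counting points in the gene or 5 kb upstream gives Rab3c 5 at 4 h and 4 at 10 h.

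In the 4 h range 3 GTPases of the late endosome, lysosome and autophagy held 15 peaks at 4 h and 0 at rest. The 7 resting peaks of this group were on Rab7 and Rab9, which lie beyond that range. Over all named genes of the range 61.3% had a peak at 4 h and none at 0 h. Rab12, which sends receptors from recycling to lysosomal degradation, held 8 at 4 h and 0 at 0 h (ENSMUSG00000023460, chromosome 17, 66494512 to 66519750, minus strand). Of these, 2 lay 109 and 617 bp from the starts of its transcripts, 5 in intron 1 and 1 downstream, and the median gap between neighbours was 1429 bp. Rab32, a GTPase of lysosome-related organelles and mitochondria, had 0 peaks at rest, 6 after 4 h and 1 after 10 h (chromosome 10, 10545039 to 10558207). Its points ran from 337 bp inside the start through intron 2 to the 3' UTR and past the gene end. The furthest lay in distal sequence 39041 bp from the start. Counting points in the gene or 5 kb upstream left 4 at 4 h. Rab29, which recruits the kinase LRRK2 to membranes, held 1 at 4 h, 7065 bp upstream.

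For early endosome GTPases the counts were 7 at 4 h and 1 at 0 h, where the fold over all genes was 4.07. Rab14, which moves cargo between the Golgi and endosomes, held 4 and 0, with 1 point in its printed promoter window, 1 at an internal start, 1 in the 3' UTR and another 10481 bp upstream. Rab21 went from 1 to 2 and Rab5c from 0 to 1. The exchange factor gene Rabgef1, whose product activates Rab5, went from 1 to 6 (ENSMUSG00000025340, chromosome 5, 130171819 to 130214342), spread over 32.7 kb. Its partner Rabep1 held 1 at each time, 833 bp apart. A further 0 h point inside Rabep1 was assigned to a gene with no symbol.

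The 2 recycling genes of the 4 h range held 11 peaks at 4 h against 1 at rest, where the fold over all genes was 4.07. Rab11b, Rab11fip2, Rab11fip3 and Rab11fip5, which had resting peaks, lie beyond that range. Rab11a, the main GTPase of recycling endosomes and a carrier of Toll-like receptor 4, had 6 peaks after 4 h and 0 at rest and at 10 h (ENSMUSG00000004771, chromosome 9, 64715300 to 64737756, minus strand). Here 4 of the 6 points lay upstream, at 2601, 6162, 20564 and 35862 bp from the start, so 3 remained when only the gene and the 5 kb before it were counted. Its effector gene Rab11fip4 had 1 peak at rest, 5 at 4 h and 0 at 10 h, and by that count 2 at 4 h, because 3 of the 4 h points lay further upstream, 2 of them inside a neighbouring gene's last intron.

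The gene of Rab1a, the ER to Golgi GTPase, was densely covered, with 2 peaks before LPS, 8 after 4 h and 0 after 10 h (ENSMUSG00000020149, chromosome 11, 20201412 to 20226856, plus strand). The 4 h points covered its body at a median spacing of 2568 bp: 1 lay 224 bp from the start, 6 in introns 1, 3 and 4 and 1 in an exon. Its 0 h promoter point and the nearest 4 h point were 596 bp apart. Secretory GTPases of the 4 h range went from 3 peaks to 11, with a fold of 4.07 over all genes, and all 11 lay in introns. Rab10, which delivers Toll-like receptor 4 to the surface of macrophages, had 1 peak at rest, 3 after 4 h and 1 after 10 h, all in its intron 1. Rab27b, a GTPase of secretory granules, went from 0 to 2, and the 10 h table does not reach it. Rab8a and Rab37 held 1 each at 4 h and 0 at 0 h and 10 h, though a 0 h point inside Rab37 was assigned by the authors to Cd300lf. Among little studied GTPases Rab40c held 2 peaks at 4 h, and Rab23 and Rab36 held 1 each, with 0 at rest.

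On 8 genes of GTPase-activating proteins the count went from 9 to 23, less than the fold of 4.07 over all genes of these IDs. Peaks at both times were found at Tbc1d5 (from 2 to 5), Tbc1d23 (2 to 4), Tbc1d7, a subunit of the TSC complex that restrains mTORC1 (1 to 3), and Tbc1d15, which acts on Rab7 (1 to 2). Tbc1d8 had 3 each time. Further 0 h points inside Tbc1d5 were assigned to genes with no symbol and are not in its count. Tbc1d20, which acts on Rab1, held 3 at 4 h and 0 at 0 h, Tbc1d31 held 2 and 0, and Rabgap1l held 1 and 0, though a 0 h point inside Rabgap1l was assigned to a gene with no symbol. Neither Tbc1d31 point counted within 5 kb of the gene, as they lay 7306 and 7951 bp upstream. The exchange factor gene Rab3il1 went from 0 to 2.

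Few positions recurred between 0 h and 4 h. Of the 18 member peaks at 0 h 4 lay within 500 bp of a 4 h peak, 22.2% (6.41 to 47.6%), and of all 0 h peaks of these IDs 17.98% did (16.4 to 19.6%). The 4 pairs were at Tbc1d15, with points 42 bp apart, Tbc1d7 with 51 bp, Tbc1d5 with 282 bp and Tbc1d8 with 332 bp. The first 3 pairs lay within 100 bp of a listed start at both times, and that of Tbc1d8 in introns 16 and 17 of 19. The closest points of Rab1a (596 bp) and Rabep1 (833 bp) lay just outside the distance. Inside Rab2b, an ER and Golgi GTPase, a 0 h and a 4 h point 80 bp apart were both assigned by the authors to Tox4, and they are not in these counts.

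**Figure D3:**
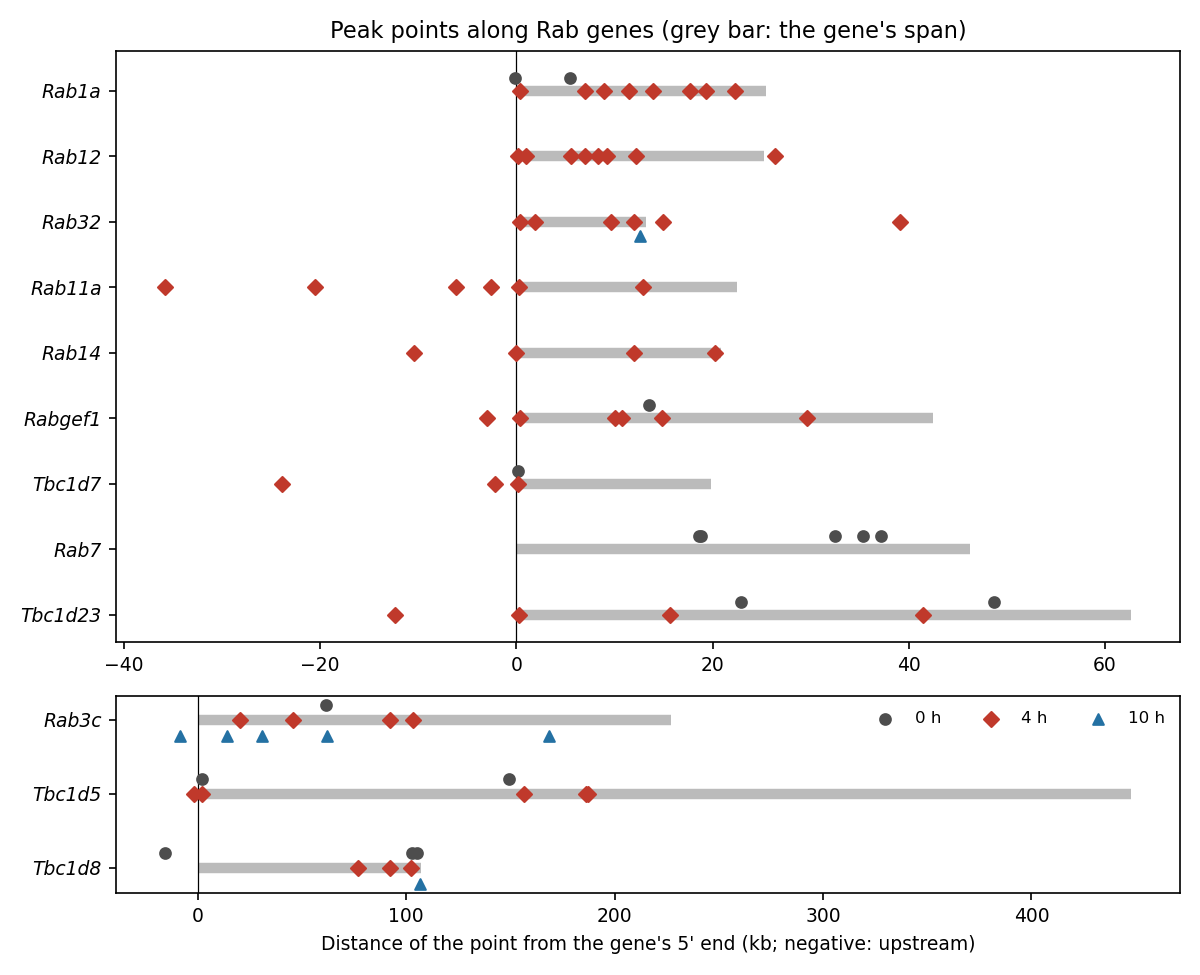
Peak points along 12 members, as distance from the 5' end of the gene in kb, with grey bars for the span of the gene and symbols for 0 h, 4 h and 10 h. Points of Rab1a and Rab12 at 4 h run along the gene, and those of Rab11a extend up to 35.9 kb upstream. The 5 points of Rab7 at 0 h lie in the body of the gene. The 4 h and 10 h tables do not reach Rab7. The 10 h table also does not reach Rab12, Rab14, Rabgef1, Tbc1d5 and Tbc1d23, so a missing symbol there is not an absent peak.

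By the authors' annotation 32.1% (19.9 to 46.3%) of member peaks at 0 h lay within 1 kb of a start, against 27.4% of all peaks of that table. Introns held 41.5% (28.1 to 55.9%) and 34.7%, and intron 1 alone 20.8% (10.8 to 34.1%) and 11.5%. In the 4 h range the promoter share of members was 33.3% at 0 h (13.3 to 59.0%) and 25.0% at 4 h (16.4 to 35.4%), with 33.4% and 19.9% over all genes, so each interval of the members holds the value of all genes. The authors' start is that of any listed transcript. Of the 17 promoter peaks at 0 h 12 lay within 1 kb of the outermost 5' end of the RefSeq gene, and of the 22 at 4 h 14 did. The others sat at inner starts, such as the 0 h point 24 bp from a start of Tbc1d23 that is 48642 bp inside the gene.

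**Figure D4:**
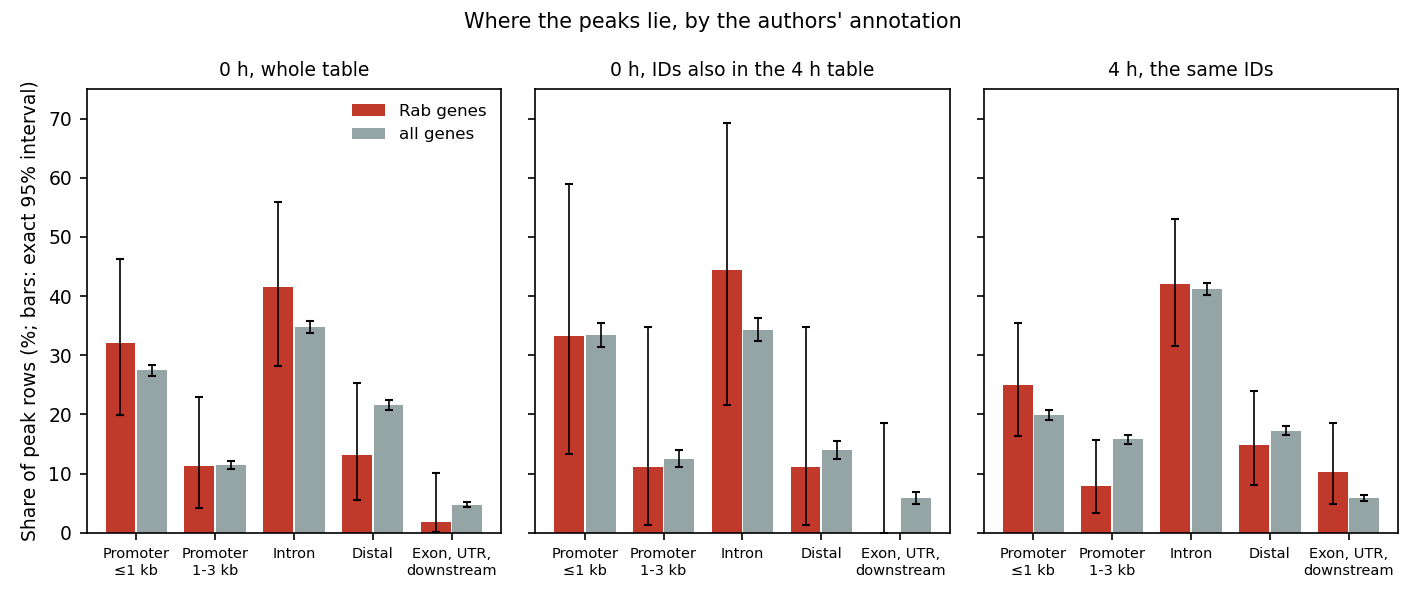
Share of peaks in 5 annotation classes for Rab genes (red) and all genes (grey), in the whole 0 h table and in the 4 h range at 0 h and 4 h, with exact 95% intervals as error bars. The wide intervals of the Rab genes reach the value of all genes in every class except promoter flanks of 1 to 3 kb at 4 h, at 7.95% against 15.8%.

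At 10 h peaks were few again, at Rab genes as over all genes. In the 10 h range 10 peaks named 6 of 18 members, 33.3% (13.3 to 59%), against a background of 32.3% of all named genes. The ratio to 4 h was 0.200 (0.0904 to 0.399) and to 0 h 0.769 (0.302 to 1.90), with 0.217 and 0.878 over all genes. Rab3c, a GTPase of regulated secretion best known from neurons, held 5 of the 10, after 1 at 0 h and 4 at 4 h (ENSMUSG00000021700, chromosome 13, 110054187 to 110280996, minus strand). Without it the ratios were 0.109 and 0.417. Rab3c is 227 kb long, and its 10 h points were spread over 177 kb, 4 in introns and another 8674 bp upstream. It was the 1 member named by more peaks at 10 h than at 4 h, 5.56% of 18 against a background of 7.25%. Counting points in the gene or 5 kb upstream, Rab3c had 5 at 4 h and 4 at 10 h. By that count Rab5c had 1 at 4 h and 2 at 10 h. A 4 h point inside Rab3c was assigned by the authors to Pde4d, and a 10 h point inside Rab5c to Hspb9. Tbc1d8, Rab5c, Rab32, Rab21 and Rab10 held 1 peak each at 10 h.

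None of the 18 members had a 10 h peak without a 4 h peak (background 6.10%). Peaks at all 3 times were held by 4 members, Rab3c, Rab10, Rab21 and Tbc1d8, 22.2% (6.41 to 47.6%), against 13.1% of all named genes. Of the 10 member peaks at 10 h 0 lay within 500 bp of a 4 h peak, with an interval up to 30.8%. That interval includes the share of all 10 h peaks, 20.3%. Within 1000 bp the member share was 10%. Without Rab3c it was 0% within 500 bp, with an interval up to 52.2%. The closest 10 h and 4 h points of a member were those of Rab32, 555 bp apart. At Rab21 the 0 h and 10 h points, both in intron 1, were 151 bp from each other, while both 4 h points lay over 2 kb from the 10 h point, towards the start. At Rab3c the 0 h and the nearest 10 h point were 541 bp apart.

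Other genes of the Rab cycle that the name rule leaves out were listed as well: DENN-domain exchange factors, Rab escort and GDI proteins, further TBC proteins and effectors. Of 85 such genes in the reference 26 had a 0 h peak, 30.6%. The family's share was 33%, with 15.6% over all protein-coding genes and 25.7% over those longer than 31.2 kb. Dennd1a, an exchange factor for Rab35, held 5 peaks at 0 h, the most of the list at rest. In the 4 h range 13 of the 85 were named, by 9 peaks before LPS and 36 after. The fold was 4.00 (1.89 to 9.44), with 4.07 over all genes. Gapvd1, an exchange factor for Rab5, went from 3 to 9 and Evi5, a GTPase-activating protein for Rab11, from 0 to 7. Rin2, also an exchange factor for Rab5, had 1 peak at rest, 5 at 4 h and 3 at 10 h. Rph3al, a Rab effector in exocytosis, went from 2 to 3.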

How the data were processed

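The submitters' processing notes list CASAVA 1.8, BWA 0.7.12 and MACS2 2.1.0, and the mouse build GRCm38 or mm10. Settings and the use of input DNA are not given in the sources used here. The authors deposited 1 table per ChIP sample, which holds, per the file headers, peak positions with their annotation, nearest gene and distance to its start, but no height or score. Input samples were not analysed here. Every peak is a point 2 bp wide. The 4 h table has 9046 complete rows and 1 incomplete row, which was left out.

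Each row was counted for the gene it names. All 51 named members matched RefSeq genes of GRCm38.p6 by symbol and chromosome, which gave gene spans. Peaks within 500 bp were called shared. Counts used Python 3.11.15, pandas 2.3.3 and scipy 1.17.1, and counting steps were tested on simulated data. Alternatives were other counted regions, merging within 1000 bp, other distances and leaving out the member with the most peaks. Members and gene lists were chosen with earlier results of these data known. Named genes were those with at least 4 peaks at any time, up to 4 per role, those with a 10 h peak or a peak at 0 h but not 4 h, and up to 6 other Rab cycle genes, of which some are not reported here. Some further members are named as examples chosen after their values were seen.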

Additional observations from a re-analysis of the deposited data

How the results depend on the processing

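Of 45 alternative values of the main counts, ratios and shares 42 stayed close to the first value (within its interval, or within 1.5 times for the count of peaks) and 0 reversed. The 3 that moved were promoter shares. At 4 h the share was 25.0%, 13.6% within 500 bp of a start and 15.9% within 1 kb of the gene's own 5' end, and at 10 h it went from 10% to 0% by the latter. The outer 5' end and leaving out Rab3c were chosen after seeing the data. Counting points in the gene or 5 kb upstream gave 61 peaks at 0 h in place of 53. With only points assigned to IDs of the 4 h range, that count gave a 4 h to 0 h ratio of 4.50. By this narrower count 9 of 29 members changed their difference between 4 h and 0 h by over 1.5 times. Of these, 4 had no difference left (Rab23, Rab29, Rab3d and Tbc1d31), and 0 reversed. With 0 h points of IDs beyond the 4 h range added, Rab37 and Rabgap1l held 1 point at each time. Rabep1 then held 2 at 0 h and 1 at 4 h. Sharing of 0 h with 4 h peaks ranged from 11.1% to 33.3% with a shorter or a longer distance. A stricter peak threshold could not be run, since no score is among the columns. No paired analysis was possible because each time has 1 library. Depth is unknown, so an absent peak at 0 h or 10 h may be one that was not detectable.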
